A study of Homo sapiens with 16 samples.

Results

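A set of 50 neuronal genes was followed in 2 human acute myeloid leukaemia cell lines treated with Corin, all-trans retinoic acid (ATRA) or both. The genes were chosen by name, as genes held silent outside neurons by the repressor REST and its co-repressor CoREST, together with REST itself. The rule uses no measured value, but the members were chosen with earlier results of these data known. All 50 were found, each as 1 of the 60603 genes of the deposited count table. The treatments lasted 24 h and were DMSO (the solvent), 0.1 µM ATRA, 0.1 µM Corin, or 0.1 µM of both, given to SKNO-1 and to U-937 cells. Each of the 8 groups held 2 libraries. GM-CSF (10 ng/mL) was in the medium of every SKNO-1 group, so line and medium cannot be told apart. The labels do not say whether the libraries of a group came from separate cultures, so the tests measure the spread between these libraries, which may be technical.

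REST is a zinc finger repressor that binds a 21-base element, the RE1, near many genes of the synapse, the neuronal cytoskeleton and secretory granules. It recruits CoREST, a scaffold that holds the histone demethylase LSD1 (KDM1A) and the deacetylases HDAC1 and HDAC2, which remove active histone marks. Corin is a synthetic compound made to inhibit both the demethylase and the deacetylases of that complex. In blood cells most of these genes are known as silent, and a rise after a CoREST inhibitor is called release here only as a name for counts that start at or near 0.

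The genome around the 50 genes was searched for RE1 elements, because they mark where REST could act. The RE1 consensus, whose 18 fixed letters are the capitals of the UNC13A site below, was sought on both strands within 10 kb of each gene's annotated start, on hg38 with GENCODE 44, allowing up to 3 mismatches. A match was found at 18 of the 50 genes (36.0%), against 6.10% of 20046 protein-coding genes. A match with 0 mismatches was found at 5 of the 50 (10.0%), against 0.105% of protein-coding genes. The list was made of genes known for REST control, so this share describes the list, and a match is not proof of binding. The sites below are the 5 without a mismatch, then those of SYT5, INA and SEZ6L2, which rose with Corin. Letters are 5′ to 3′ on the strand of the match, and capitals mark letters equal to the consensus.
BDNF: TTCAGCACCttGGACAGaGCC
CHGA: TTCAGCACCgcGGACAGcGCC
GRIN1: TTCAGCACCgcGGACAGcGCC
NEFH: TTCAGCACCggGGACAGgGCC
UNC13A: TTCAGCACCgtGGACAGcGCC
SYT5: aTCAGCACCcgGGACAGcGCC
INA: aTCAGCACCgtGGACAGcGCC
SEZ6L2: TTatGgACCctGGACAGcGCC
The UNC13A site, chr19:17681753-17681773 on the minus strand, lies in an intron 6602 bases into the gene. The SYT5 site, chr19:55180200-55180220 on the minus strand, lies in an exon 79 bases from the gene start, and the INA site, chr10:103279008-103279028 on the minus strand, in an intron 1880 bases into the gene. The SEZ6L2 site, chr16:29898240-29898260 on the plus strand, lies in an intron 1300 bases from the start. The others are in an exon of BDNF (chr11:27720676-27720696, minus strand), an intron of CHGA (chr14:92923523-92923543, plus strand), an exon of GRIN1 (chr9:137139260-137139280, plus strand) and 1533 bases upstream of NEFH (chr22:29478675-29478695, minus strand).

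**Figure D1:**
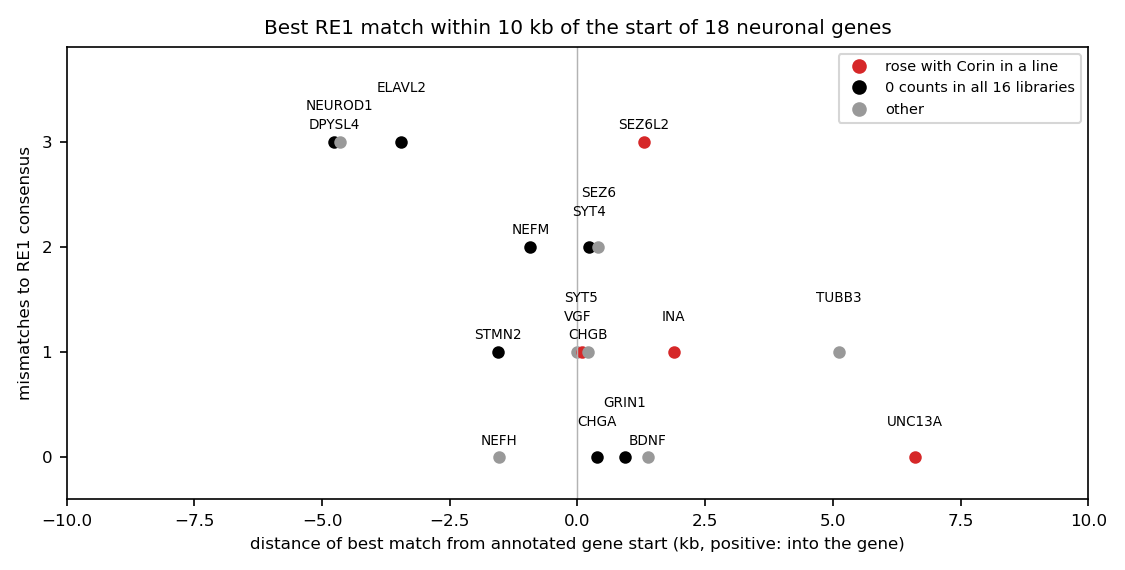
Best RE1 match of the 18 genes that had one within 10 kb of the start: the x axis is the distance from the annotated gene start in kb, positive into the gene, and the y axis is the number of mismatches to the consensus. Red points are genes that rose with Corin in a line (4), black points genes with 0 counts in all 16 libraries (7), and grey points the other genes; both red and black points occur from 0 or 1 to 3 mismatches.

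Genes with a match were found both among those that rose and among those that stayed silent. Of the 9 genes that rose with Corin in either line, 4 had a match (INA, SEZ6L2, SYT5 and UNC13A) and 5 had none within these limits (MAP2, MAPT, SEPT3, SYT11 and TUBB4A). Of the 11 genes with 0 counts in every library, 7 had a match (CHGA, DPYSL4, ELAVL2, GRIN1, NEFM, STMN2 and SYT4) and 4 had none (GAP43, GRIA2, SNAP25 and SYT1). Only 6 of the 18 genes with a match had enough counts to be tested in a line, against 20 of the 32 without one. So 4 of 6 tested genes with a match rose, and 5 of 20 without, taking the lines together. Over all tested genes, 20.5% rose with Corin in SKNO-1 and 8.55% in U-937. SYT5 in both lines and MAP2 in U-937 were low in a DMSO library and had enough counts only with the help of libraries with Corin. Being tested was thus not independent of rising, and nothing is read from these shares. The response of the other 12 genes with a match was not measurable at this depth. No difference between genes with and without a match was tested.

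Libraries held 28.4 to 37.8 M estimated counts. Levels are given as raw counts or as CPM (counts scaled to library size by TMM), with SD over 2 libraries, and differences as log2 fold changes with SE and an adjusted p from edgeR's quasi-likelihood test over all genes of a line. A gene is called higher or lower, or said to rise or fall, at an adjusted p below 0.05. Line markers matched the labels: RUNX1T1, which is part of the fusion gene of SKNO-1, had 92.0 to 125 CPM in the SKNO-1 DMSO libraries, and HOXA9 and HOXA10 together had 135 to 148 CPM in U-937 with DMSO and 0 in SKNO-1. All 7 myeloid markers were present in every group. Neural identity markers outside the set (8 genes) summed to at most 1.14 CPM in any library. Of markers of other cell types (T cell, 2 genes; B cell, 2; erythroid, 3; fibroblast, 3; epithelial, 2), each list summed to at most 0.187 CPM in SKNO-1. In U-937 the B cell list summed to 1.59 to 2.77 CPM in every group, with 1 of its 2 genes at 0. The fibroblast list there summed to 0.0679 to 0.0939 CPM with DMSO and 0.559 to 0.849 CPM with Corin, and its gene COL1A1 was called higher (adjusted p 0.00345). The part of these markers in the results was not tested. The SKNO-1 DMSO pair stood apart: its log2 differences between libraries had an SD of 0.361 across 9344 genes, against 0.108 to 0.209 in the other 7 groups, and followed GC content (r = 0.796 across genes, which are not independent replicates).

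Most of the set was silent. With DMSO, 23 of the 50 genes had 0 counts in SKNO-1 and 19 in U-937, and 32 and 24 had at most 3 counts over both libraries. A mean of 1 CPM was reached by 8 genes under DMSO in SKNO-1, and by 12 in U-937. The 11 genes with 0 counts in all 16 libraries encode vesicle proteins (SYT1, SYT4 and SNAP25), the granule protein CHGA, glutamate receptor subunits (GRIN1 and GRIA2), growth proteins (STMN2, GAP43 and DPYSL4), the neurofilament NEFM and the RNA-binding ELAVL2. For each of these, 3 counts, the most that a count of 0 allows, would be 0.0413 to 0.0489 CPM in a group, counting error only. Corin left 19 genes at 0 in each line, and both agents left 24 in SKNO-1 and 16 in U-937.

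**Figure D2:**
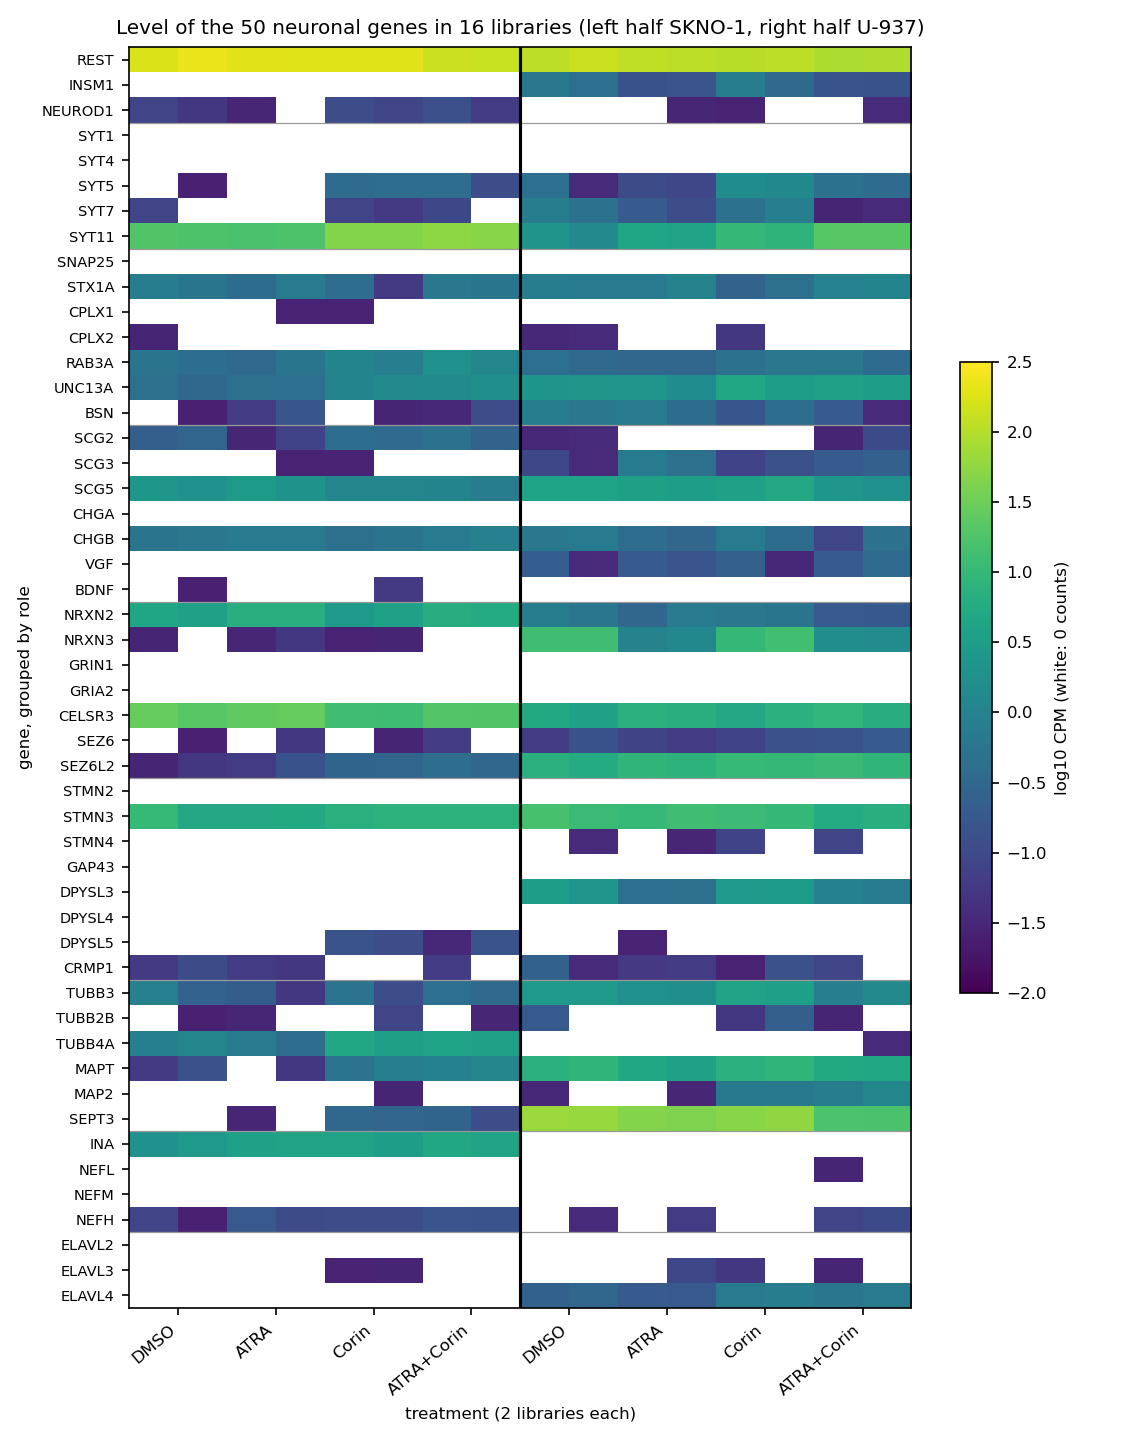
Level of each of the 50 genes (rows, grouped by role) in the 16 libraries (columns, 2 per treatment, SKNO-1 left of the black line and U-937 right of it), as log10 CPM; white cells had 0 counts. The 11 rows that are white throughout are the genes at 0 in all libraries, and grey lines separate the roles.

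The low-count filter passed 18 of the 50 in SKNO-1 and 23 of them in U-937, with 15 in both and 24 in neither. Members that did not pass had at most 6 counts in any SKNO-1 library and 11 in any U-937 library. The filter needs about 0.291 CPM in SKNO-1 and 0.308 CPM in U-937 in as many libraries as a group holds. A gene under that level in a DMSO library could pass only with the help of libraries of other groups. This was so for 6 genes in SKNO-1 (SYT5, SCG2, TUBB3, MAPT, SEZ6L2 and SEPT3) and 4 in U-937 (SYT5, SCG3, MAP2 and ELAVL4). Of these, TUBB3 nevertheless had its highest mean with DMSO (0.594 CPM). No count below is support for the set as a whole. Among the untested genes, NEUROD1, STMN4, VGF, BDNF, TUBB2B, ELAVL3, SEZ6 and CRMP1 had a few counts in a line; CRMP1, a collapsin response protein, had 6 counts over the SKNO-1 DMSO pair and 0 over the Corin pair.

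In SKNO-1, Corin alone raised 8 of the 18 tested genes and lowered 2. Of all 17479 tested genes, 37.9% were called, 20.5% higher and 17.3% lower. The 8 were INA, MAPT, SEPT3, SEZ6L2, SYT11, SYT5, TUBB4A and UNC13A, and the 2 were CELSR3 and SCG5. Among the 12 genes already above the filter level in both DMSO libraries, 4 rose and 2 fell. Leaving out a Corin library lowered the count called from 10 to 6 (without replicate 1) or 5 (without replicate 2), and leaving out a DMSO library gave 11 or 14. The 7 myeloid markers summed to 3219 to 4291 CPM with DMSO and 2637 to 2807 CPM with Corin. Of these, 2 were called higher, 2 lower and 3 were not called, so the sum does not describe each of them. Their part was not tested.

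Corin added to ATRA shares no library with Corin alone, and 7 of the 8 genes rose there too, all but INA. Over all genes, 78.2% of those called higher with Corin alone were also called higher there, and 4 of the 7 (SYT5, MAPT, SEZ6L2 and SEPT3) were under the filter level in a DMSO library, so nothing particular to the set is read from the overlap. In that comparison 9 of 18 genes rose and 3 fell, where 44.8% of all genes were called, 23% higher and 21.8% lower. The 2 further genes were RAB3A and SCG2, and REST joined CELSR3 and SCG5 among those that fell. MAPT, RAB3A, SYT11, TUBB4A and UNC13A held there when any library was left out; SEPT3 and SEZ6L2 were lost without any 1 of the 4 compared, SYT5 without either ATRA library or ATRA plus Corin replicate 1, and REST without ATRA replicate 1. The count called was 6 without ATRA replicate 1 and 7 without ATRA plus Corin replicate 1. Both agents against DMSO raised 9 genes and lowered 2 (46.7% of all genes called, 24.7% higher and 22% lower), and shares its DMSO libraries with Corin alone.

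In U-937, Corin alone raised 5 of 23 tested genes and lowered 1, where 12.9% of all 17717 tested genes were called, 8.55% higher and 4.4% lower. The 5 were MAP2, SEZ6L2, SYT11, SYT5 and UNC13A, and SEPT3 fell. Among the 19 genes above the filter level in both DMSO libraries, 3 rose and 1 fell. The 7 myeloid markers summed to 686 to 708 CPM in U-937 with DMSO and 2421 to 2820 CPM with Corin. Of the 6 tested, 1 was called higher and 5 were not called (median log2 fold change 0.055), so the sum does not describe most of them. Their part in these calls was not tested. Without DMSO replicate 2 the count called fell from 6 to 2. Added to ATRA, Corin raised MAP2, SYT11, SYT5 and UNC13A again (77.1% of all genes called higher with Corin alone were), and also ELAVL4, and 8 genes fell (47.4% of all genes called, 22.5% higher and 24.8% lower). Of these 5 rises, MAP2 and SYT11 held without any 1 library. That count of 13 was 7 without either ATRA library and 8 without ATRA plus Corin replicate 1. SEZ6L2, SYT11, SYT5 and UNC13A were called higher with Corin alone in both lines.

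**Figure D3:**
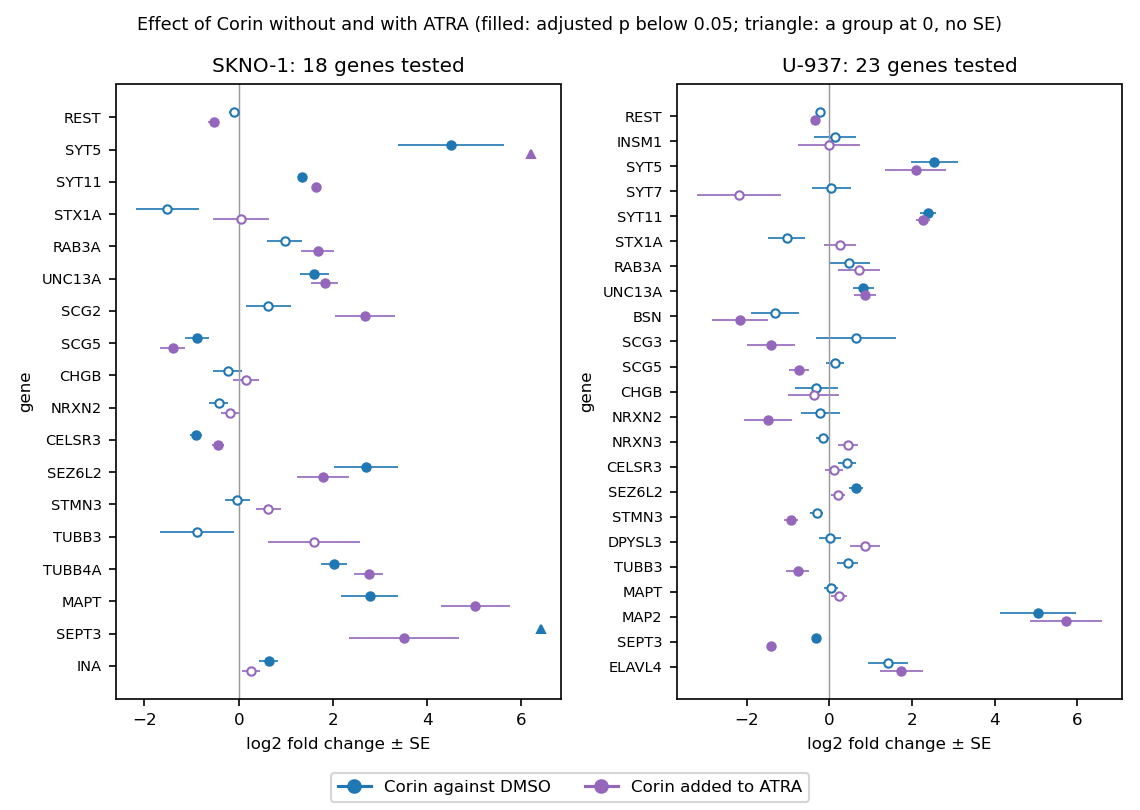
Log2 fold change with SE of each tested gene for Corin against DMSO (blue) and Corin added to ATRA (purple), in SKNO-1 (18 genes) and U-937 (23 genes); filled symbols had an adjusted p below 0.05 and triangles mark a group at 0, whose size depends on the prior count. In SKNO-1 SYT5, SEPT3 and MAPT lie farthest to the right, and in U-937 MAP2 does.

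The clearest releases from counts of 0 to 3 were SEPT3, SYT5 and SEZ6L2 in SKNO-1 and MAP2 in U-937. SEPT3 (chr22:41969443-41998221, hg38, plus strand), a neuronal septin of presynaptic membranes, had 0 and 0 counts in SKNO-1 with DMSO, 1 and 0 with ATRA, 11 and 10 with Corin and 9 and 4 with both. Every Corin library lay above every library without it. Against the floor of 3 counts over the DMSO group, the observed SEPT3 level was 7.35-fold higher with Corin and 4.81-fold higher with both agents (adjusted p 0.00892 and 0.0146). Folds against this floor leave out the counting error of the treated group. The call with Corin was lost without Corin replicate 1, and the call with both agents without ATRA plus Corin replicate 1.

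SYT5 (chr19:55171196-55180289, minus strand) encodes a synaptotagmin, a calcium-binding protein of secretory vesicles. In SKNO-1 it had 0 and 1 counts with DMSO, 0 and 0 with ATRA, 13 and 14 with Corin and 13 and 4 with both. The ratio of Corin to DMSO was 28.3 (95% counting interval 4.67 to 1160; adjusted p 0.0145), and that of both to DMSO 18.9 (2.95 to 788; adjusted p 0.026). The 4 libraries with Corin (4 to 14 counts) lay above the 4 without it, though for Corin alone without either Corin library the adjusted p rose above 0.05, to at most 0.0767. In U-937 SYT5 had 14 and 1 counts with DMSO, 4 and 3 with ATRA, 59 and 39 with Corin and 17 and 11 with both. There the DMSO libraries differed from each other, and Corin alone gave the highest level, 1.42 ± 0.21 CPM against 0.236 ± 0.286. The log2 fold change was 2.54 ± 0.57 (adjusted p 0.00351), lost without DMSO replicate 2, and adding ATRA to Corin lowered SYT5 by 3.20-fold (adjusted p 0.00773, lost without Corin replicate 1).

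SEZ6L2 (chr16:29871159-29899550, minus strand), a membrane protein of neurons, had 1 and 2 counts in SKNO-1 with DMSO, 2 and 5 with ATRA, 10 and 10 with Corin and 13 and 10 with both. Corin raised it by a ratio of 7.0 (95% counting interval 2.08 to 36.8; adjusted p 0.0133), a call lost without DMSO replicate 1 or without either Corin library. In U-937 it was present from the start, at 6.55 ± 1.01 CPM under DMSO, 8.47 ± 0.693 under ATRA, 10.3 ± 0.199 under Corin and 9.80 ± 1.33 under both agents. The rise with Corin there was 1.57-fold (adjusted p 0.00889), lost without DMSO replicate 2.

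MAP2 (chr2:209424047-209734147, plus strand), which stabilises microtubules in dendrites, had 1 and 0 counts in U-937 with DMSO, 0 and 1 with ATRA, 25 and 20 with Corin and 26 and 34 with both. The 4 libraries with Corin lay between 20 and 34 counts and the 4 without it at 0 or 1. The ratio to DMSO was 40.5 with Corin (95% counting interval 6.91 to 1635; adjusted p 0.000224) and 58.6 with both (10.1 to 2351; adjusted p 2.79e-06). These calls held under every alternative that could be fitted. SKNO-1 had 1 MAP2 count in its 8 libraries together.

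DPYSL5, a growth cone protein of the collapsin response family, had 0 counts in the SKNO-1 DMSO and ATRA libraries, 5 and 4 with Corin and 1 and 5 with both. With Corin it was 3.15-fold above the floor of 3 counts over the DMSO group. It did not pass the filter and was not tested. In U-937 its only count was 1, with ATRA.

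**Figure D4:**
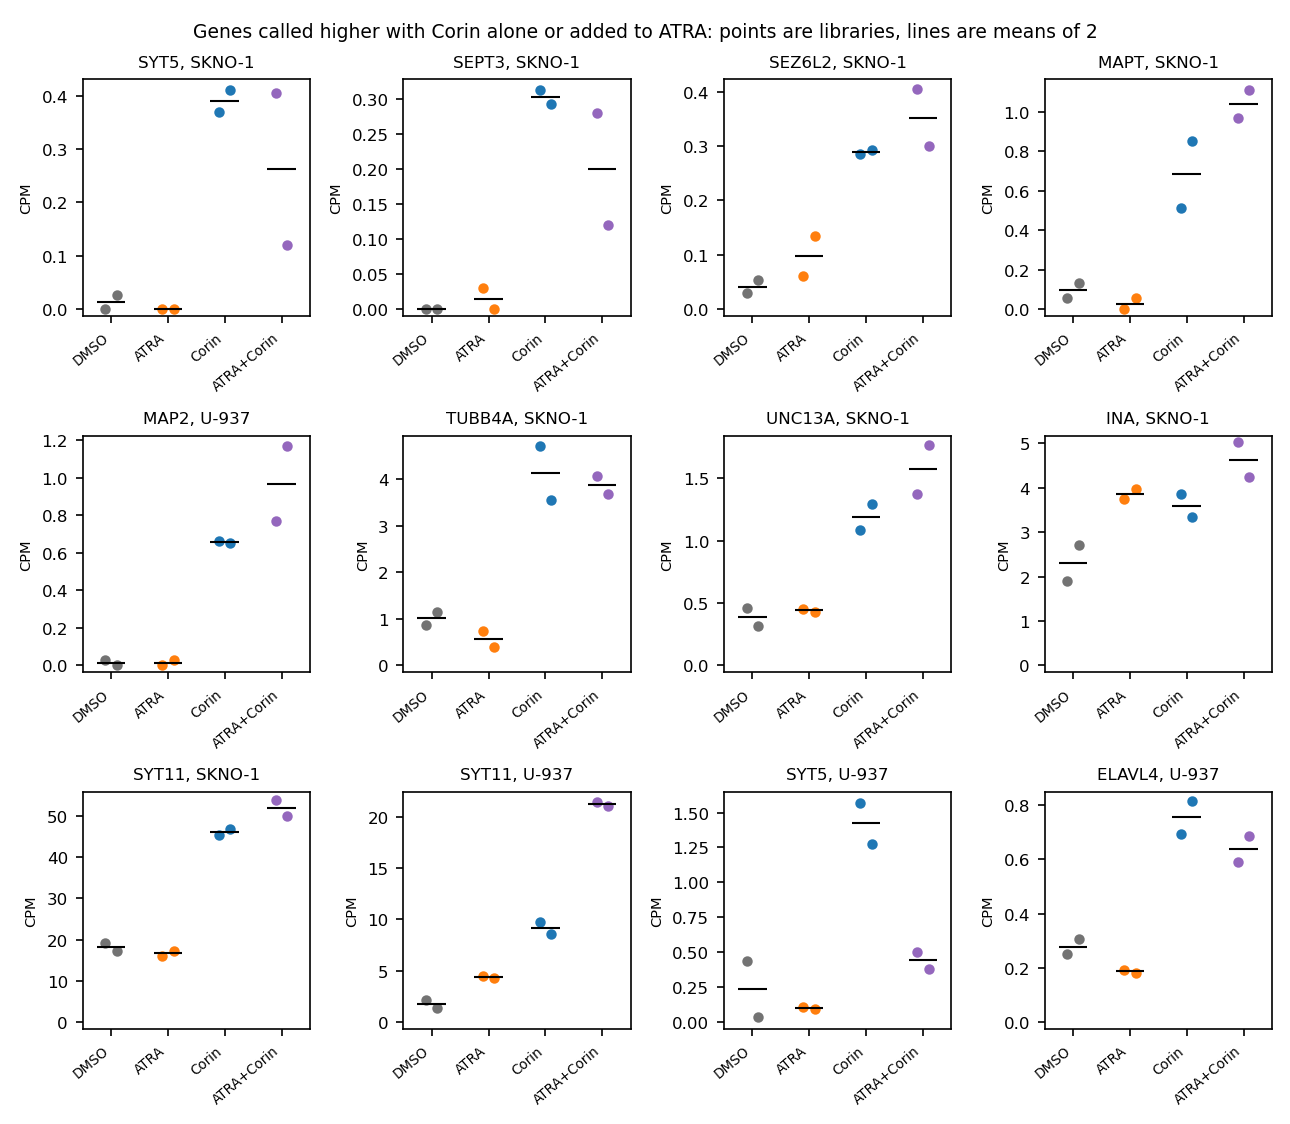
CPM of genes called higher with Corin alone or added to ATRA, by treatment, with 1 point per library and a line at the mean of 2; each panel has its own linear scale from 0. In the SEPT3, SYT5 (SKNO-1) and MAP2 panels the DMSO and ATRA points sit at or near 0 and the Corin points above them; in the SYT11 panel for U-937 the groups step up from DMSO to both agents.

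Among the other vesicle genes, SYT11 responded with a small SE. This atypical synaptotagmin (chr1:155859567-155885199, plus strand) had 662 and 655 counts in SKNO-1 with DMSO, 533 and 639 with ATRA, 1591 and 1592 with Corin and 1730 and 1669 with both. The 4 Corin libraries stood clear of the 4 without it, with a rise of 2.53-fold with Corin (log2 1.34 ± 0.09, adjusted p 3.37e-05). In U-937 the counts were 68 and 39 with DMSO, 163 and 141 with ATRA, 366 and 261 with Corin and 723 and 612 with both. No group overlapped another, and the means were 1.73, 4.39, 9.13 and 21.2 CPM. ATRA raised it 2.52-fold, Corin 5.26-fold and both 12.2-fold (log2 3.61 ± 0.19, adjusted p 6.21e-14), and adding ATRA to Corin raised it 2.32-fold (adjusted p 5.93e-07).

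UNC13A (chr19:17601336-17688365, minus strand), which primes vesicles for release and holds an RE1 match with 0 mismatches, had 16 and 12 counts in SKNO-1 with DMSO, 15 and 16 with ATRA, 38 and 44 with Corin and 44 and 59 with both. It rose 3.05-fold with Corin (log2 1.61 ± 0.30, adjusted p 0.00443) with no overlap between Corin and other libraries. In U-937 it stood at 2.25 ± 0.174 CPM under DMSO, 1.90 ± 0.504 under ATRA, 3.97 ± 1.04 under Corin and 3.46 ± 0.422 under both agents. The rise of 1.77-fold there (adjusted p 0.0338) was lost under 7 of 12 alternatives, among them without either DMSO library or without Corin replicate 1.

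RAB3A, the small GTPase of synaptic vesicles, was called in SKNO-1 with both agents and not with Corin alone. Its counts were 19 and 16 with DMSO, 12 and 21 with ATRA, 37 and 29 with Corin and 59 and 39 with both. The log2 fold change was 0.97 ± 0.36 with Corin (adjusted p 0.0671) and 1.63 ± 0.35 with both (adjusted p 0.00619, lost without ATRA plus Corin replicate 1). The difference between the latter 2 groups was 0.65 ± 0.32 (adjusted p 0.21). STX1A, a membrane partner in vesicle fusion, was not called against DMSO in either line. In U-937 it was higher with both agents than with Corin (log2 1.51 ± 0.43, adjusted p 0.00418, lost without Corin replicate 1). CPLX1 and CPLX2, which clamp fusion, had at most 2 counts in any library.

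Of the 4 tubulin, microtubule-binding and septin genes tested in SKNO-1, 3 rose with Corin (MAPT, SEPT3 and TUBB4A), where 20.5% of all tested genes were called higher. The other, TUBB3, had 32 and 10 counts with DMSO and 18 and 4 with Corin (log2 -0.88 ± 0.79, adjusted p 0.412) and was not called. MAPT, SEPT3 and TUBB3 were under the filter level in a DMSO library. TUBB4A (chr19:6494319-6502848, minus strand), a neuronal beta tubulin, had 30 and 44 counts with DMSO, 25 and 15 with ATRA, 166 and 121 with Corin and 131 and 123 with both. The rise was 4.07-fold with Corin (log2 2.02 ± 0.28, adjusted p 0.00108). Tubulin genes are close in sequence, so their estimated counts are uncertain. In U-937 TUBB4A had 1 count in 8 libraries.

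MAPT (chr17:45894527-46028334, plus strand), the microtubule protein tau, had 2 and 5 counts in SKNO-1 with DMSO, 0 and 2 with ATRA, 18 and 29 with Corin and 31 and 37 with both. The Corin groups did not overlap those without it. It rose 6.86-fold with Corin (log2 2.78 ± 0.61, adjusted p 0.00805, lost without Corin replicate 2) and 10.4-fold with both (adjusted p 0.00203). In U-937 it was already present, fell with ATRA and was not called with Corin. It stood there at 8.01 ± 0.915 CPM under DMSO, 4.42 ± 0.926 under ATRA, 8.23 ± 0.876 under Corin and 5.22 ± 0.237 under both agents.

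INA (chr10:103277138-103290346, plus strand), a neurofilament subunit, had 66 and 103 counts in SKNO-1 with DMSO, 125 and 147 with ATRA, 135 and 114 with Corin and 161 and 141 with both. It was 1.55-fold higher with Corin (log2 0.63 ± 0.21, adjusted p 0.0433), a call lost under 6 of 12 alternatives, among them without DMSO replicate 1 and without either Corin library. With both agents the rise was 1.99-fold (adjusted p 0.00515). ATRA alone gave log2 0.74 ± 0.21 (adjusted p 0.0861) and was not called. In U-937 INA had 0 counts throughout, NEFM had none in either line, NEFL had 1 count in all and NEFH at most 6 in a library.

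Of 3 granule genes tested in SKNO-1, 1 changed with Corin, where 37.9% of all tested genes were called. SCG5, a chaperone of the convertase PCSK2, fell: 82 and 73 counts in SKNO-1 with DMSO, 95 and 75 with ATRA, 40 and 40 with Corin and 34 and 26 with both. It fell 1.85-fold with Corin (adjusted p 0.028, lost without either Corin library) and 2.33-fold with both (adjusted p 0.00669, lost without ATRA plus Corin replicate 2). SCG2 had 8 and 11 counts in SKNO-1 with DMSO, 1 and 3 with ATRA, 15 and 13 with Corin and 16 and 9 with both. It was called for both agents against ATRA and in no other comparison (log2 2.68 ± 0.64, adjusted p 0.00941, lost without ATRA replicate 1 or ATRA plus Corin replicate 1). SCG3 rose with ATRA in U-937, from 3 and 1 counts to 27 and 15 (log2 3.14 ± 0.73, adjusted p 0.000945), and had 3 and 4 counts with Corin and 7 and 7 with both. CHGB, with an RE1 match 204 bases into the gene, had 3 to 30 counts and was called in no comparison, and CHGA had none.

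Of the adhesion genes, CELSR3 fell with Corin in SKNO-1 and was higher with both agents in U-937. This cadherin of axon guidance had 963 and 806 counts in SKNO-1 with DMSO, 853 and 994 with ATRA, 471 and 434 with Corin and 638 and 631 with both. It fell 1.87-fold with Corin (log2 -0.91 ± 0.13, adjusted p 0.00136) under every alternative. In U-937 it was at 4.62 ± 1.17 CPM under DMSO, 7.23 ± 0.307 under ATRA, 6.27 ± 1.53 under Corin and 7.77 ± 1.90 under both agents, higher with both agents (log2 0.75 ± 0.22, adjusted p 0.00519, lost without DMSO replicate 2 or ATRA plus Corin replicate 1). NRXN2, a presynaptic neurexin, was not called with Corin alone in either line. With Corin added to ATRA in U-937 it fell (log2 -1.49 ± 0.58, adjusted p 0.0358), from 11 to 23 counts to 5 to 6.

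ELAVL4, a neuronal RNA-binding protein, had 0 counts in SKNO-1. In U-937 it had 8 and 9 counts with DMSO, 7 and 6 with ATRA, 26 and 25 with Corin and 20 and 20 with both, with no overlap between libraries with and without Corin. The log2 fold change was 1.43 ± 0.48 with Corin (adjusted p 0.0515, not called) and 1.74 ± 0.52 for Corin added to ATRA (adjusted p 0.0067, lost without ATRA replicate 2). Against DMSO both agents gave log2 1.19 ± 0.49 (adjusted p 0.0369), lost without any 1 of the 4 libraries compared.

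ATRA without Corin raised few of the genes. In SKNO-1, 0 of the 18 were called by edgeR, with 5 at an unadjusted p below 0.05 and 0 called by DESeq2, where 6.76% of all genes were called, 2.96% higher and 3.79% lower. Leaving out DMSO replicate 1 or 2 gave 4 or 5 calls. In U-937, ATRA raised 3 (CELSR3, SCG3 and SYT11) and lowered 6 (DPYSL3, INSM1, MAPT, NRXN3, SEPT3 and SYT7) of 23, where 41.8% of all genes were called, 21.7% higher and 20.1% lower. The CELSR3 call was lost without DMSO replicate 2 or ATRA replicate 1, that of SYT7 without DMSO replicate 1 or ATRA replicate 2, and that of INSM1 without DMSO replicate 1 or either ATRA library. Both agents lowered 12 and raised 6 of the 23 there, where 65.3% of all genes were called, 33.1% higher and 32.2% lower. The number raised was 2 without DMSO replicate 2 or without ATRA plus Corin replicate 1, and 3 with library totals in place of TMM. The myeloid markers summed to 1102 to 1112 CPM in U-937 with ATRA and 3599 to 3855 CPM with both agents, and their part in these changes was not tested. ATRA added to Corin changed 3 of 18 genes in SKNO-1 (CELSR3 and NRXN2 higher, REST lower), where 10.4% of all genes were called, 4.82% higher and 5.6% lower, and 0 or 1 were called when any library was left out. With the GC trend removed the split was 0 higher and 2 lower. In U-937 it raised STX1A and SYT11 and lowered 12 genes, where 60.5% of all genes were called, 29.9% higher and 30.6% lower.

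The 12 genes lowered by both agents in U-937 were above the filter level in both DMSO libraries. SEPT3, at 0 in SKNO-1 with DMSO, had 2165 and 1900 counts in U-937 with DMSO, 1665 and 1388 with ATRA, 1897 and 1720 with Corin and 566 and 476 with both. In CPM the groups did not overlap, at 66.1 ± 2.35, 44 ± 2.68, 53.3 ± 4.02 and 16.5 ± 0.279. The fall was 1.5-fold with ATRA, 1.24-fold with Corin (adjusted p 0.0427, lost under 6 of 12 alternatives, among them without either DMSO library or without Corin replicate 1) and 3.99-fold with both (adjusted p 7.62e-14). NRXN3, a neurexin, had 415 and 393 counts with DMSO, 38 and 42 with ATRA, 380 and 421 with Corin and 56 and 44 with both. It fell 11.3-fold with ATRA (adjusted p 3.11e-12) and 8.28-fold with both, and the 4 libraries with ATRA (38 to 56 counts) lay far below the 4 without it (380 to 421).

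DPYSL3, a collapsin response protein, had 103 and 67 counts with DMSO, 16 and 15 with ATRA, 103 and 87 with Corin and 32 and 20 with both. It fell 6.10-fold with ATRA (adjusted p 6.62e-07). SYT7 had 26 and 14 counts with DMSO, 7 and 4 with ATRA, 19 and 26 with Corin and 1 and 1 with both, a ratio of 20.5 between DMSO and both (95% counting interval 5.31 to 175; adjusted p 4.99e-05). INSM1, a neuroendocrine transcription factor, had 20 and 13 counts with DMSO, 5 and 5 with ATRA, 30 and 11 with Corin and 5 and 4 with both. For these 3 genes each library with ATRA lay below each library without it.

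STMN3 and TUBB3 fell with both agents and were not called with ATRA or Corin alone. STMN3, a stathmin that binds tubulin, stood at 13.6 ± 2.52 CPM under DMSO, 11.7 ± 2.14 under ATRA, 11.0 ± 1.36 under Corin and 6.20 ± 0.563 under both agents (2.20-fold lower, adjusted p 3.19e-06). TUBB3, the neuronal beta tubulin with an RE1 match 5122 bases into the gene, stood at 2.72 ± 0.00701, 1.80 ± 0.0616, 3.68 ± 0.36 and 1.07 ± 0.337 CPM (2.56-fold lower with both, adjusted p 0.000154). MAPT, SCG5, NRXN2 and BSN, a scaffold of the presynaptic active zone, also fell with both agents, by 1.53-, 1.98-, 3.84- and 5.54-fold; the MAPT call was lost without DMSO replicate 2.

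**Figure D5:**
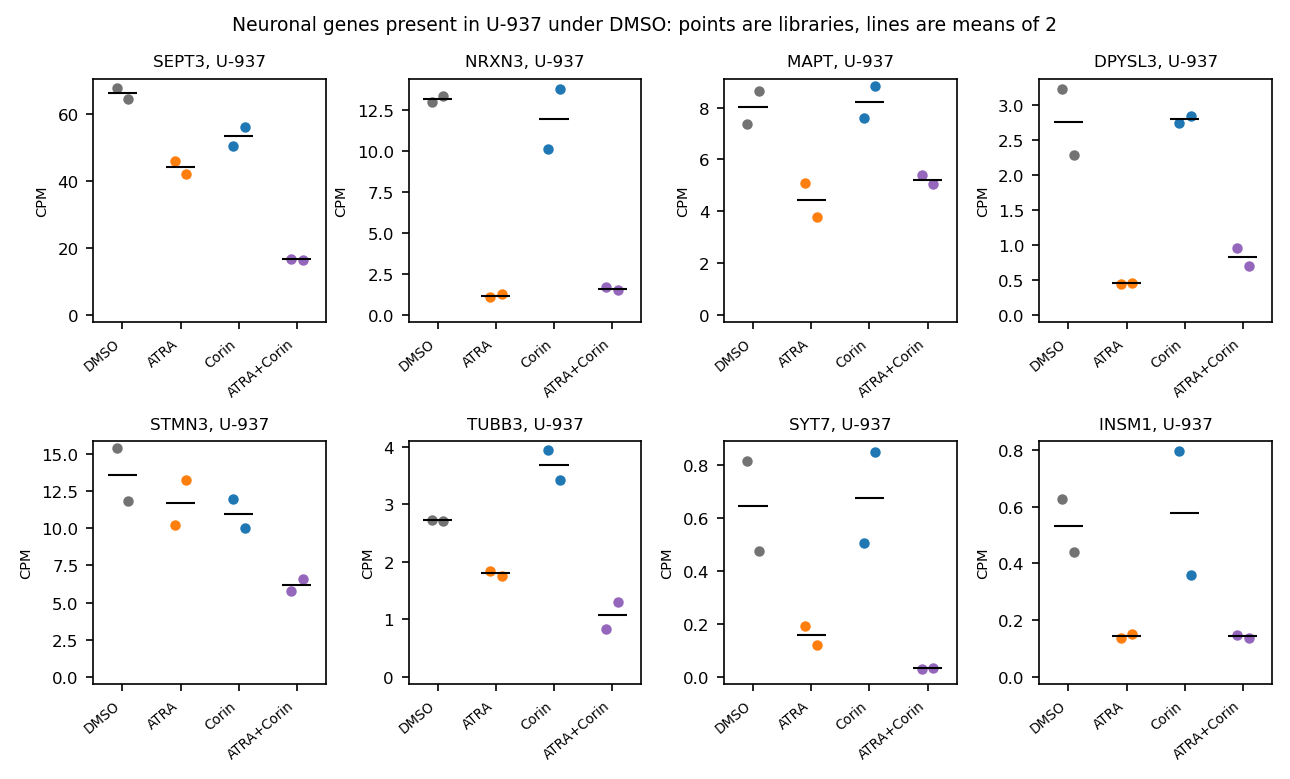
CPM in U-937 of 8 genes that were present under DMSO, by treatment, with 1 point per library and a line at the mean of 2; each panel has its own linear scale from 0. NRXN3, DPYSL3 and SYT7 are low in both groups with ATRA, whereas SEPT3, STMN3 and TUBB3 are lowest with both agents.

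REST itself had the highest mean level per length of the 50 under DMSO in both lines, at 27.8 ± 8.75 TPM (a level per transcript length) in SKNO-1 and 18.5 ± 2.55 in U-937 with DMSO. In CPM it stood at 203 ± 40.8 under DMSO, 196 ± 4.05 under ATRA, 191 ± 0.518 under Corin and 136 ± 2.06 under both agents in SKNO-1, and at 126 ± 16.3, 116 ± 2.66, 108 ± 7.31 and 91.5 ± 2.00 in U-937. REST was not called with Corin alone (log2 -0.09 ± 0.12 and -0.22 ± 0.10, adjusted p 0.58 and 0.167). Both agents lowered it in SKNO-1 (log2 -0.58 ± 0.12, adjusted p 0.00449) and in U-937 (log2 -0.46 ± 0.10, adjusted p 0.000403), under every alternative. REST RNA was present in every library, those where members rose included, and its part in the silent genes was not tested.

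The REST co-repressor list of 18 genes was expressed in every library. With Corin, 2 rose and 1 fell of 18 tested in SKNO-1 (ZMYM2 and PHF21A higher, EHMT1 lower), 16.7% called against 37.9% of all genes. In U-937, 0 rose and 2 fell of 17 (ZMYM2 and ZMYM3), 11.8% against 12.9%. With both agents 2 rose and 5 fell in SKNO-1 (38.9% against 46.7%), and 4 rose and 8 fell in U-937 (70.6% against 65.3%). These shares, for Corin or both agents against DMSO, were near or under those of all genes. The largest fall in U-937 was that of KDM1A, the demethylase LSD1, by log2 -1.23 ± 0.10 (adjusted p 1.44e-10), which in SKNO-1 fell by log2 -0.27 ± 0.05 (adjusted p 0.00316). HDAC2 fell by log2 -1.0 ± 0.10 in U-937 while HDAC1 rose by 0.40 ± 0.10. For Corin added to ATRA the share of the list called was 33.3% in SKNO-1 (44.8% of all genes) and 64.7% in U-937 (47.4%). For ATRA against DMSO it was 0% (6.76%) and 52.9% (41.8%), and for ATRA added to Corin 16.7% (10.4%) and 58.8% (60.5%).

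Further neuronal genes with a reported RE1 were examined as a second list, without counts over the list. In SKNO-1, L1CAM, SYN1 and CHRM4 were called higher with Corin. L1CAM, a neural adhesion molecule, had 0 counts in the 4 SKNO-1 libraries without Corin, 32 and 34 with Corin and 35 and 35 with both. With Corin it was 23.1-fold above the floor of 3 counts over the DMSO group (adjusted p 0.000596). SYN1, a synapsin, went from 3 and 4 counts to 20 and 24 (log2 2.68 ± 0.56, adjusted p 0.00653, lost without Corin replicate 2). CHRM4, a muscarinic receptor, went from 2 and 2 to 17 and 12 (log2 2.85 ± 0.50, adjusted p 0.00288). In U-937, SYP rose with both agents and ONECUT2, CDK5R1 and MYT1 fell, the MYT1 call being lost without DMSO replicate 1. ONECUT2, a neural transcription factor, had 2389 and 2172 counts in U-937 with DMSO and 179 and 134 with both (log2 -3.90 ± 0.16, adjusted p 8.76e-13). It had 539 and 483 counts with ATRA and 1824 and 2156 with Corin, so much of the fall was already present with ATRA alone.

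Among the 8 neural identity markers, 6 had 0 counts in SKNO-1 with DMSO and 6 with Corin. GFAP, an intermediate filament of astrocytes, went from 0 and 0 counts with DMSO to 13 and 12 with Corin and 16 and 22 with both, at least 8.75-fold higher with Corin (adjusted p 0.00373). PAX6, a transcription factor of neural progenitors, had 5 counts over the DMSO pair, 17 with Corin (adjusted p 0.0991, not called) and 29 with both (adjusted p 0.0158, lost without DMSO replicate 2 or ATRA plus Corin replicate 1). In U-937 neither was tested.

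The difference in Corin response between the lines was tested in 1 fit of all 16 libraries for the 26 genes that passed its filter. It was called for 5 of them (12.8% of all genes called, 5.28% higher and 7.49% lower): CELSR3 and SYT11 responded more positively in U-937, and SEPT3, SEZ6L2 and MAPT in SKNO-1. For both agents against DMSO it was called for 9 (40.6% of all genes called, 17.9% higher and 22.7% lower). SYT5 and UNC13A, higher in both lines, gave differences for Corin of log2 -1.97 ± 1.64 (adjusted p 0.426) and -0.79 ± 0.43 (adjusted p 0.258), which do not show that they responded alike.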

How the data were processed

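RNA was sequenced from 16 libraries of 2 AML cell lines with a stranded total RNA kit, per the labels' protocols. Trimmomatic, STAR and RSEM on hg38 are named in the submitters' processing notes. The authors deposited RSEM expected counts per gene, used for tests and CPM, and TPM, used for levels between genes. 20.4% of positive counts were not whole, and they were rounded here. The use of strand in counting and of both mates is not given in the sources used here, so overlapping genes are uncertain.

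Genes passed edgeR's filterByExpr. TMM and edgeR 4.0.16 (R 4.3.3) quasi-likelihood fits with robust settings used the 8 libraries of each line, with 4 residual degrees of freedom, and all 16 for line differences. Adjusted p-values are Benjamini-Hochberg over all genes. Fits were tested on simulated data. Depth was 28.4 to 37.8 M counts per library; intervals are exact at 95% and cover counting error only. Alternatives were RLE size factors, library totals, no filter, DESeq2 1.42.0, a replicate block, GC offsets, only the 4 libraries compared, and leaving out each library. The members and the gene lists were chosen with earlier results of these data known. Genes were named if called against DMSO, first those at 0 to 3 counts with DMSO. Deviations of same-numbered libraries correlated with mixed signs between groups (r from -0.487 to 0.415), so numbers were not taken as pairs. RE1 matches came from hg38 and GENCODE 44. The authors' deposited tables of their own comparisons were not used. A gene of the second RE1 list is not reported here, and no counts over that list are given.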

Additional observations from a re-analysis of the deposited data

Results flagged for a closer look

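The response of a gene to treatment differed between the lines, by the test of the difference itself in the fit of all 16 libraries, in 14 cases; values are U-937 minus SKNO-1 on the log2 scale. For Corin against DMSO these were CELSR3 (1.33), SYT11 (1.05), SEZ6L2 (-2.06), MAPT (-2.74) and SEPT3 (-6.76). CELSR3 fell in SKNO-1, whereas SYT11 rose in both lines. The SEZ6L2 difference was lost under 9 of 15 alternatives, including without either SKNO-1 DMSO or Corin library, without U-937 DMSO replicate 1 and without either U-937 Corin library.

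For ATRA plus Corin against DMSO they were SYT11 (2.14), CELSR3 (1.13), STMN3 (-1.19), UNC13A (-1.35), SEZ6L2 (-2.36), NRXN2 (-2.42), MAPT (-3.96), BSN (-4.64) and SEPT3 (-7.80). The sizes for SEPT3 depend on the prior count, since it was at 0 in SKNO-1 with DMSO. That for BSN rests on 1 count in SKNO-1 with DMSO and 5 with both, and was lost under 6 of 15 alternatives. The STMN3 difference was lost without U-937 DMSO replicate 1, and that of UNC13A without SKNO-1 DMSO replicate 2 or ATRA plus Corin replicate 2. The lines also differed in medium, so line and medium cannot be told apart.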

How the results depend on the processing

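Of 110 calls of single genes, 60 held under every alternative, 50 were lost in at least 1 and 0 reversed. Counts of genes called moved over 1.5 times from the reported value as follows. ATRA in SKNO-1, reported at 0, gave 4 with no filter, 2 with the GC trend removed, 2 with that and the replicate block, and 0 to 5 leaving out a library. ATRA plus Corin against Corin in SKNO-1, reported at 3, gave 0 with the replicate block and 0 to 1 leaving out a library. ATRA plus Corin against ATRA in U-937, reported at 13, gave 8 with DESeq2 and 7 to 10 leaving out a library. Leaving out a library gave 5 to 14 for Corin in SKNO-1 (reported 10), 6 to 9 for ATRA plus Corin against ATRA in SKNO-1 (reported 12) and 2 to 6 for Corin in U-937 (reported 6). In the other comparisons the total of both directions did not move so far, but counts in 1 direction did: for ATRA plus Corin against DMSO in U-937 the number higher went from 6 to 2 or 3, in SKNO-1 the number lower went from 2 to 4 with the GC trend removed, and the line difference for Corin went from 2 higher and 3 lower to 4 and 2 without SKNO-1 DMSO replicate 2. For ATRA plus Corin against ATRA in U-937 the split of 5 higher and 8 lower became 7 and 5 with the GC trend removed and the replicate block. Under the replicate block Corin gave 9 in SKNO-1 and 5 in U-937. Correlations of same-numbered libraries ran from -0.487 to 0.415. Whether a call lost under the block marks a weaker effect was not tested. Over all genes, counts called moved over 1.5 times from 6619 to 3626 at the lowest for Corin in SKNO-1, from 1181 to between 239 and 5335 for ATRA in SKNO-1, from 1822 to between 397 and 7440 for ATRA plus Corin against Corin there, from 7828 to 4962 for ATRA plus Corin against ATRA there, from 2293 to 1332 for Corin in U-937, and from 2538 to between 1524 and 4471 for the line difference in Corin response. Genes under about 0.3 CPM could be tested only where a group was higher, and 3 counts, the most that a count of 0 allows, is the limit for silent genes.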
